A study of Mus musculus with 8 samples.

Results

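Genes of cell adhesion and of tight and gap junctions were examined in early mouse embryos: Gja1, Ptprk, Cdh1, Epcam, Ctnnb1, Ctnna1 and Tjp1. They were taken by symbol from the deposited count table, in which each of the 7 was found among 52636 gene identifiers, and all 7 passed the filter on low counts. The genes were chosen by symbol and no measured value or threshold is part of the rule, but the choice was made with earlier results of these data known, so their values are given as a description. RNA of 8 libraries, each from 10 pooled embryos, had been sequenced. The zygotes were wild-type, from B6C3F1 x CD1 matings after hormone treatment, and were cultured after collection. By the labels, 3 libraries were ZP3 Trim-away: the zygotes had been injected at 15 h post hCG with mCherry-Trim21 mRNA (0.2 mg/mL), an antibody against ZP3 (1 mg/mL) and beads of Oregon green dextran (0.02 mg/mL). Trim21 is an antibody receptor that sends antibody-bound protein to the proteasome. The 4 Trim21 overexpression libraries came from zygotes given the same mRNA and beads with the antibody buffer, and 1 library came from non-manipulated embryos. The study's text gives the numbers of the 2 injected groups the other way round, and the labels were followed in every comparison here. RNA was extracted on the evening of the day after injection, when the embryos labelled ZP3 Trim-away were still at the 1-cell stage (E0.5) and the others at the 2-cell stage (E1.5). Antibody and stage therefore changed together and cannot be told apart in any comparison here. No library here received another antibody.

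Adherens junctions hold neighbouring blastomeres together: E-cadherin, the product of Cdh1, binds its like on the next cell and is tied to the actin cortex by beta-catenin (Ctnnb1) and alpha-catenin (Ctnna1). Epcam encodes an epithelial adhesion protein of the cell membrane. Tjp1 encodes ZO-1, a scaffold under tight junctions, and Gja1 encodes a connexin, the channel subunit of gap junctions, which also joins cumulus cells to the oocyte. Ptprk is a receptor protein tyrosine phosphatase whose outer part binds its like on other cells. In the mouse these junctions are put to use at compaction and in the trophectoderm, later than the stages sampled, and the oocyte stores part of their transcripts and proteins. The study names Gja1 for the poorly formed zona of oocytes that lack it, and PTPRK as a protein bound by ZP3 in oocytes.

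Total counts ran from 13228428 to 15379933 in the ZP3 Trim-away-labelled libraries and from 17615416 to 22427747 in those labelled Trim21 overexpression, and 13627 to 17422 genes had a count in a library. Levels are given in CPM, counts scaled for library size and composition. Trim21, the injected mRNA, was at 940 to 8673 CPM in the 4 Trim21 overexpression libraries and at 2076 CPM in the library labelled ZP3 Trim-away replicate 1. It was at 0 and 3.61 CPM in the ZP3 Trim-away-labelled libraries replicates 2 and 3, which goes against their label, so the log2 fold changes of the 7 genes and the calls of the wider list are also given without them. That fit holds 1 library labelled ZP3 Trim-away against 4, and assumes that the lone library varies as those of Trim21 overexpression do. Zp3 mRNA, which Trim-away does not target, was at 27.6, 54.8 and 56.9 CPM in the ZP3 Trim-away-labelled libraries and at 105 to 143 CPM in Trim21 overexpression (edgeR's quasi-likelihood test, adjusted p = 0.055, under 0.05 in DESeq2 and limma-voom). Of the 12 oocyte and embryo markers, all had counts in these libraries, with a summed level of 11674 to 15498 CPM in the ZP3 Trim-away-labelled libraries and 14449 to 23898 CPM in Trim21 overexpression. Among the 12, Bmp15, Zp2 and Nlrp5 passed the test, all higher in the ZP3 Trim-away-labelled libraries, where 6.90% of all genes tested passed. The groups did not overlap in 8 of the 12, beside 28.5% of all genes tested. ZP3 Trim-away was above in 5 (Bmp15, Zp2, Nlrp5, Ooep and Zscan4d) and below in 3 (Zp3, Dppa3 and Oosp1). Zscan4d was at 619, 473 and 582 CPM against 99.1 to 326 CPM, with 97.1 CPM in the non-manipulated library, while Zscan4c overlapped between groups. Dppa3 was at 7850 to 8643 CPM against 11809 to 21789 CPM. Summed markers of spermatozoa, with Tnp1 and Tnp2 at 0, were at 96.8 to 186 CPM in ZP3 Trim-away and 0.471 to 57.0 CPM in Trim21 overexpression. These sums were mostly Odf2, at 96.8, 185 and 179 CPM in ZP3 Trim-away replicates 1 to 3. No other marker of spermatozoa was above 3.22 CPM in any library, so the sums describe Odf2 and not the set. Summed markers of blood were at 2.02 to 4.21 CPM in ZP3 Trim-away and 3.20 to 6.24 CPM in Trim21 overexpression.

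None of the 7 genes passed the test between ZP3 Trim-away and Trim21 overexpression (edgeR's quasi-likelihood test, Benjamini-Hochberg adjustment over 13641 genes tested, threshold 0.05). Over all genes tested, 941 (6.90%) passed it, 407 higher (2.98%) and 534 lower (3.91%) in ZP3 Trim-away. At an unadjusted p under 0.05 the count was also 0 of 7 in edgeR, against 21.3% of all genes. It was 1 of 7 in DESeq2, beside 4590 of the 25623 genes in that fit. In limma-voom it was 2 of 7, beside 3912 of 13641 genes. DESeq2 and limma-voom passed 0 of the 7 after adjustment. The fold changes of 5 genes lay above and those of 2 below 0 on the log2 scale, with a median of 0.19 beside -0.04 over all genes tested. Libraries of a group differed widely (common biological coefficient of variation 1.16), so the intervals below are broad, and a missed threshold does not show equal levels. In pooled embryos, fewer embryos or cells with a transcript and less of it in each cannot be told apart.

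**Figure D1:**
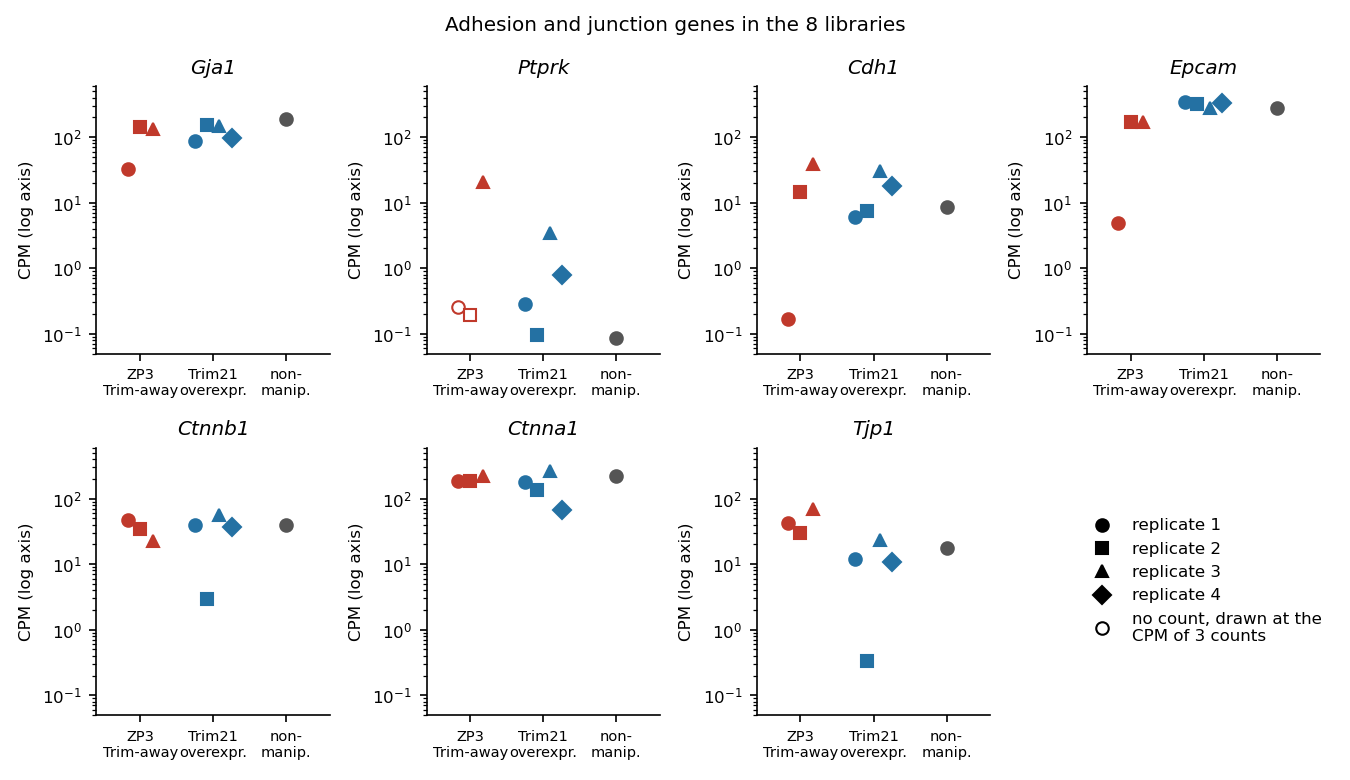
CPM (log axis) of each of the 7 genes in the 8 libraries; red points are ZP3 Trim-away, blue Trim21 overexpression and grey the non-manipulated library, the shape gives the replicate number, and open symbols mark no count, drawn at the CPM of 3 counts. Epcam was below and Tjp1 above the Trim21 overexpression range in all 3 ZP3 Trim-away-labelled libraries, while the groups overlapped in the other 5 genes.

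Epcam (ENSMUSG00000045394, chromosome 17, 87635979 to 87651129, plus strand, GRCm38) and Tjp1 (ENSMUSG00000030516, chromosome 7, 65296165 to 65527781, minus strand) were the 2 genes of the 7 whose groups did not overlap, and their promoters are shown for that reason. Each runs from 250 bases before to 50 bases after the start site in RefSeq (GRCm38.p6), at chr17:87635729-87636028 on the plus strand and chr7:65371195-65371494 on the minus strand. On the minus strand the Tjp1 gene begins at 65527781, so its window lies inside the gene, at an internal start site. Capitals mark matches on either strand to CAGGTG (a form of E-box, read CACCTG on the other strand) and to GGGCGG (a GC box, read CCGCCC on the other strand). Other forms of the E-box were not searched and are not marked.
Epcam: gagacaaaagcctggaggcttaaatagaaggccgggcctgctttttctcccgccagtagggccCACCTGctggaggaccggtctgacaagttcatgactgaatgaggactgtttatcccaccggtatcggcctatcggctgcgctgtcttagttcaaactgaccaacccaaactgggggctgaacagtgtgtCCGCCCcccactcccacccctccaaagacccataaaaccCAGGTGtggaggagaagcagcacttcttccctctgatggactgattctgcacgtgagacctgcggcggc
Tjp1: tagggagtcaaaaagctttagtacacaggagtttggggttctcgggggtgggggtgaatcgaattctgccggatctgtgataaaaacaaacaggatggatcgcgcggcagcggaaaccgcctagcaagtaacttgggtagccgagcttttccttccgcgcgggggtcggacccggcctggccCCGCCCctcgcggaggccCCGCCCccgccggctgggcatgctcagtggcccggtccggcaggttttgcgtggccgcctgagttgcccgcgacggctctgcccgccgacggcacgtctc
The Epcam promoter held 2 CAGGTG matches, which began 187 and 19 bases before the start site, and 1 GC box match at 58 bases before it. No CAGGTG match was in the Tjp1 window, which held 2 GC box matches at 68 and 50 bases before the start site. Of 32851 mouse promoters of this length, 20.2% held CAGGTG, 2.88% held it at least 2 times and 35.7% held GGGCGG, and no marked match overlaps another. The GC content was 57.0% for Epcam and 65.3% for Tjp1, with a median of 52.7% over all promoters. Entries for 5 of the 7 genes were in the promoter table, the exceptions being Cdh1 and Ctnna1. A match is a run of letters and shows no binding.

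Epcam was lower in the ZP3 Trim-away-labelled libraries, at 4.95, 167 and 172 CPM in replicates 1 to 3. In Trim21 overexpression its levels were 342, 317, 279 and 335 CPM, and the non-manipulated library had 277 CPM. The groups did not overlap, and replicate 1 of ZP3 Trim-away stood far below every other library. Its 4.95 CPM was 65.8-fold below the median of Trim21 overexpression. The mean was 115 ± 94.97 CPM (SD, n = 3) against 318 ± 27.9 CPM (SD, n = 4), 2.78-fold lower. The log2 fold change was -1.49 (SE 0.85, 95% interval -3.41 to 0.43), and the adjusted p was 0.377 in edgeR's quasi-likelihood test. Epcam was the one gene of the 7 whose call depended on a library: without ZP3 Trim-away replicate 1 the log2 fold change was -0.93 and passed (edgeR adjusted p = 0.0486). The ZP3 Trim-away arm of that fit is replicates 2 and 3 alone, whose Trim21 level goes against their label. Without ZP3 Trim-away replicates 2 and 3 the log2 fold change was -6.00, a value of replicate 1 alone. Summed markers of oviduct epithelium, a tissue that expresses Epcam and surrounds the embryo before collection, were at 52.7 to 106 CPM in the ZP3 Trim-away-labelled libraries and 32.6 to 48.5 CPM in Trim21 overexpression. Of these 10 markers 9 had a count, with Krt18 the highest and Wfdc2 at 0. Krt18 reached 73.5 CPM in the ZP3 Trim-away-labelled libraries and 24.9 CPM in Trim21 overexpression. It was the 1 of the 4 markers tested whose groups did not overlap. Cfap126 overlapped, at 16.9 to 19.8 CPM in ZP3 Trim-away and 11.7 to 30.5 CPM in Trim21 overexpression. The higher sums in ZP3 Trim-away thus describe Krt18 and not the set. The part of oviduct epithelium in the Epcam values was not tested.

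Tjp1 had the opposite order. It was at 41.6, 29.4 and 70.1 CPM in the ZP3 Trim-away-labelled libraries. The Trim21 overexpression libraries had 11.8, 0.330, 23.3 and 10.6 CPM and the non-manipulated library 17.7 CPM. All 3 ZP3 Trim-away-labelled libraries were above all others, and replicate 2 of Trim21 overexpression was the lowest, with 7 counts (95% exact Poisson interval 0.133 to 0.679 CPM, counting error only). The mean of 47.0 ± 20.9 CPM (SD, n = 3) was 4.08-fold that of 11.5 ± 9.41 CPM (SD, n = 4). The log2 fold change was 2.02 (SE 1.04, 95% interval -0.33 to 4.37; edgeR adjusted p = 0.317). It lay above 0 whichever library was left out, from 1.62 to 2.62, and was 1.86 without ZP3 Trim-away replicates 2 and 3. Epcam and Tjp1 make 28.6% of the 7 genes, and the groups did not overlap in 28.5% of all genes tested (13.1% with ZP3 Trim-away above and 15.4% with it below).

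Cdh1 (ENSMUSG00000000303, chromosome 8, 106603351 to 106670246, plus strand), the E-cadherin gene, varied from library to library in both groups. Its levels were 0.168, 14.7 and 38.8 CPM in the ZP3 Trim-away-labelled libraries, and the lowest rests on 2 counts. In Trim21 overexpression they were 5.94, 7.39, 29.9 and 18.2 CPM, with 8.69 CPM in the non-manipulated library. The highest and the lowest of the 8 values both fell in ZP3 Trim-away, so the groups overlapped. The mean was 17.9 ± 19.5 CPM (SD, n = 3) against 15.3 ± 11.1 CPM (SD, n = 4). The log2 fold change was 0.19 (SE 1.30, 95% interval -2.75 to 3.14; edgeR adjusted p = 0.965), an interval that holds changes of several fold either way. It fell below 0 without ZP3 Trim-away replicate 3 (-1.04), without Trim21 overexpression replicate 1 (-0.07) or replicate 2 (-0.04), and without ZP3 Trim-away replicates 2 and 3 (-6.45).

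The catenins that link E-cadherin to actin overlapped between the 2 injected groups. Ctnnb1 (ENSMUSG00000006932, chromosome 9, 120929216 to 120960507, plus strand), which encodes beta-catenin and also acts with Tcf factors in the nucleus, was at 47.7, 34.8 and 22.3 CPM in the ZP3 Trim-away-labelled libraries. Trim21 overexpression had 39.3, 2.97, 55.7 and 37.3 CPM and the non-manipulated library 38.9 CPM. Apart from replicate 2 of Trim21 overexpression, which was 13.3-fold below the median of the other 3 libraries of its group, the values lay between 22.3 and 55.7 CPM. The means of 34.9 ± 12.7 and 33.8 ± 22.1 CPM (SD, n = 3 and 4) gave a log2 fold change of 0.05 (SE 0.83, 95% interval -1.82 to 1.92; edgeR adjusted p = 0.987). It changed sign without ZP3 Trim-away replicate 1 (-0.26) and without Trim21 overexpression replicate 2 (-0.33), and was 0.50 without ZP3 Trim-away replicates 2 and 3. Ctnnb1 shares 759 exon bases with Ulk4 on the opposite strand, and without the strand setting of the counting their reads cannot be told apart.

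Ctnna1 (ENSMUSG00000037815, chromosome 18, 35118859 to 35254779, plus strand), the alpha-catenin gene, was the steadiest of the 7 in the ZP3 Trim-away-labelled libraries, at 188, 185 and 221 CPM. The Trim21 overexpression libraries had 181, 137, 267 and 66.5 CPM and the non-manipulated library 223 CPM. All 3 values of ZP3 Trim-away lay within the range of the other injected group. The mean was 198 ± 20.04 CPM (SD, n = 3) against 163 ± 84.1 CPM (SD, n = 4), and the log2 fold change was 0.28 (SE 0.41, 95% interval -0.65 to 1.21; edgeR adjusted p = 0.783). On the linear scale that interval, the narrowest of the 7, runs from 0.638-fold to 2.32-fold. Without ZP3 Trim-away replicates 2 and 3 the log2 fold change was 0.21. Ctnna1 shares 95 exon bases with Lrrtm2 on the opposite strand.

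Gja1 (ENSMUSG00000050953, chromosome 10, 56377330 to 56402513, plus strand), the connexin, was at 32.9, 145 and 135 CPM in the ZP3 Trim-away-labelled libraries. Trim21 overexpression had 88.2, 154, 148 and 97.99 CPM, and the non-manipulated library, with 190 CPM, was the highest of the 8. Replicate 1 of ZP3 Trim-away was the lowest, and the other 2 lay inside the range of Trim21 overexpression. The mean was 104 ± 61.9 CPM (SD, n = 3) against 122 ± 33.7 CPM (SD, n = 4). The log2 fold change of -0.24 (SE 0.49, 95% interval -1.34 to 0.87; edgeR adjusted p = 0.855) became 0.18 without ZP3 Trim-away replicate 1 and -1.89 without replicates 2 and 3. Cumulus cells also express Gja1, and their 12 markers summed to 13.9 to 86.1 CPM in the ZP3 Trim-away-labelled libraries, 1.27 to 38.7 CPM in Trim21 overexpression and 0.346 CPM in the non-manipulated library. Of these markers 6 had a count, and Ptx3, Cyp11a1, Amh, Fshr, Lhcgr and Foxl2 were at 0 in all 8 libraries. The part of cumulus cells, which the study's methods remove from zygotes with hyaluronidase, in the Gja1 values was not tested.

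Ptprk (ENSMUSG00000019889, chromosome 10, 28074820 to 28597397, plus strand) was near the limit of detection in most libraries. In the ZP3 Trim-away-labelled libraries it had no count in replicates 1 and 2, where 3 counts would be 0.252 and 0.195 CPM, and 20.9 CPM (318 counts) in replicate 3. In Trim21 overexpression its levels were 0.281, 0.0942, 3.42 and 0.785 CPM, and the non-manipulated library had 0.0865 CPM. A single library thus held the highest value while the other 2 of its group had none. The fitted log2 fold change of 2.57 (SE 2.38, 95% interval -2.82 to 7.96; edgeR adjusted p = 0.629) rests on replicate 3 of ZP3 Trim-away. Without it, ZP3 Trim-away had no count of Ptprk and the fitted value turned to -7.40, and it was -7.45 without replicates 2 and 3. Ptprk did not pass the filter on low counts without Trim21 overexpression replicate 3 or replicate 4, so it had no value there.

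**Figure D2:**
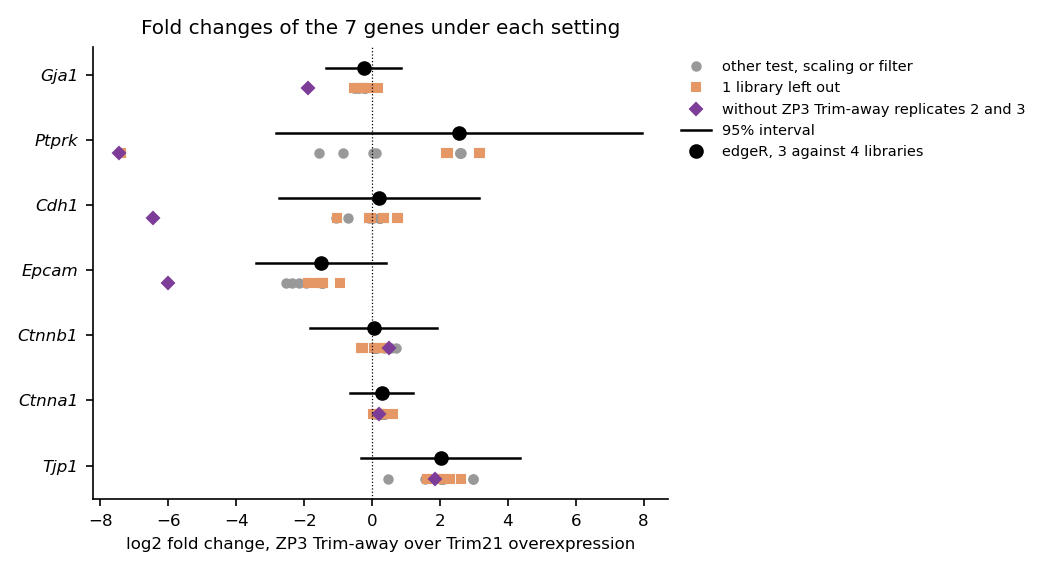
Log2 fold change of ZP3 Trim-away over Trim21 overexpression for each of the 7 genes; black points and lines are the edgeR values with 95% intervals, and the smaller symbols are other tests, scalings or filters (grey), the fits with 1 library left out (orange) and the fit without ZP3 Trim-away replicates 2 and 3 (purple). Every interval crosses 0; Epcam stayed below 0 and Tjp1 and Ctnna1 above 0 in all fits, and the widest interval was that of Ptprk, from -2.82 to 7.96.

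Low values did not fall in the same library for all genes. The library labelled ZP3 Trim-away replicate 1, which had the fewest counts and the fewest genes with a count, was alone the lowest of the 7 injected libraries for Gja1, Cdh1 and Epcam, but not for Ctnnb1, Ctnna1 or Tjp1. Over all genes tested it was the lowest in 21.9%. Trim21 overexpression replicate 2 was the lowest for Ctnnb1 and Tjp1, against 9.86% of all genes tested. The non-manipulated library lay within the range of Trim21 overexpression for Cdh1, Ctnnb1, Ctnna1 and Tjp1, 4 of the 7, and 62.3% of all genes tested did so. The 7 genes together held 0.0284% to 0.0853% of the counts of a library.

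Levels of different genes were compared per kilobase of exon. In Trim21 overexpression Epcam was the highest, at 145 ± 12.7 CPM per kilobase (SD, n = 4), and no other gene of the 7 reached its range. Ctnna1 followed at 25.4 ± 13.1, Gja1 at 11.9 ± 3.29 and Ctnnb1 at 6.51 ± 4.27 CPM per kilobase. Cdh1 was at 3.35 ± 2.43, Tjp1 at 1.47 ± 1.204 and Ptprk at 0.0858 ± 0.116 CPM per kilobase. Below Epcam, each gene's range overlapped that of the next in the order. The non-manipulated library had the same order except that Tjp1 (2.27 CPM per kilobase) was above Cdh1 (1.90 CPM per kilobase).

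In the ZP3 Trim-away-labelled libraries the mean level of Epcam was still the first, but at 52.2 ± 43.3 CPM per kilobase (SD, n = 3) its range from 2.26 to 78.3 took in that of Ctnna1, at 30.8 ± 3.12. Ctnna1 and Gja1 (10.1 ± 6.03) did not overlap. Gja1, Ctnnb1 (6.73 ± 2.45), Tjp1 (6.02 ± 2.67), Cdh1 (3.91 ± 4.26) and Ptprk (0.523 ± 0.905) each overlapped with the next. The per-kilobase ratio of Epcam to Ctnna1, both measured in the same library, was 0.0772, 2.64 and 2.28 in the ZP3 Trim-away-labelled libraries and 5.51, 6.76, 3.06 and 14.8 in Trim21 overexpression, with 3.63 in the non-manipulated library. The 2 injected groups did not overlap in this ratio, as they did not in Epcam alone, so it is not a separate result.

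**Figure D3:**
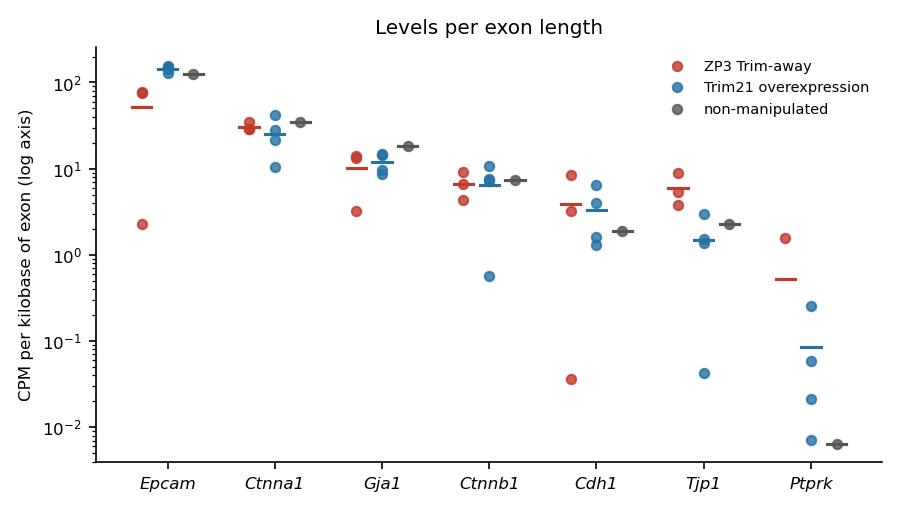
CPM per kilobase of exon (log axis) of the 7 genes, ordered by their mean in Trim21 overexpression; points are libraries and horizontal bars group means. The 2 ZP3 Trim-away libraries without a Ptprk count are not drawn but are in its mean; Epcam stands apart at 145 CPM per kilobase in Trim21 overexpression and spreads from 2.26 to 78.3 in ZP3 Trim-away.

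The genes most like each of the 7 over the 8 libraries were found by the root mean square difference of log2 CPM, each gene centred on its own mean, among 6960 genes of at least 10 CPM. The closest to Epcam were Ipo11 (0.168) and Bag1 (0.187), where Epcam itself had an SD of 1.92 on that scale. Ctnna1 was closest to Fbxw4 (0.178) and Psmd2 (0.278), and Gja1 to Eral1 (0.198) and Muc13 (0.231). For Ctnnb1 the closest were Skil (0.373) and Tubb6 (0.445), and for Tjp1 Ttc3 (0.563) and Wasf2 (0.620). Tubb6 and Skil were low like Ctnnb1 in replicate 2 of Trim21 overexpression, at 2.21 and 3.53 CPM, which the search itself selects for. Cdh1 had more distant neighbours, Prorsd1 (0.746) and the integrin gene Itgav (0.799), and Ptprk had none within 1 log2 unit, its closest being Il6ra (1.72) and Gch1 (1.75). These distances are descriptions over libraries that share depth and group.

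Around these 7 genes, a wider list of 142 adhesion, junction, polarity and cortex genes in 8 groups was described; 126 had a count and 93 were tested. Of the 93, 7 were higher (7.53%, beside 2.98% of all genes tested) and 2 lower (2.15%, beside 3.91%) in the ZP3 Trim-away-labelled libraries. Together these were 9.68% of the 93 beside 6.90% of all genes tested, and 84 did not pass. The median log2 fold change was 0.71, beside -0.04 for all genes tested. Of the 93, 26 (28.0%, beside 28.5% of all genes tested) did not overlap between groups. ZP3 Trim-away was above in 19 of the 93 and below in 7, beside 13.1% and 15.4% of all genes tested. Without ZP3 Trim-away replicates 2 and 3, with 1 library in that arm, 6 of 108 tested genes of the list passed (5.56%), beside 1227 of 18279 over all genes in the same fit (6.71%). Of these 6, 3 were among the 9 (Itga9, Lef1 and Mpp5) and 3 were not (Cd9, Ctnna3 and F11r). Leaving out 1 library gave 3 to 7 calls, with 3 without ZP3 Trim-away replicate 2, and 5 and 4 without Trim21 overexpression replicates 1 and 4.

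Among cadherins, catenins and nectins, 1 of 13 tested genes passed. Cdh2, the N-cadherin gene, was at 78.3, 89.0 and 45.3 CPM in the ZP3 Trim-away-labelled libraries and at 8.18, 16.2, 14.8 and 5.01 CPM in Trim21 overexpression, with 11.8 CPM in the non-manipulated library. The groups did not overlap, and the log2 fold change was 2.69 (SE 0.58; edgeR adjusted p = 0.0287), where that of Cdh1 was 0.19. Nectin3, which encodes an adhesion protein of adherens junctions, was 3.13-fold higher on average and did not pass (edgeR adjusted p = 0.0535; it passed in DESeq2, limma-voom, limma on log2 RPKM with either pseudocount and with median ratio size factors), and neither did Ctnna3, another alpha-catenin gene (4.54-fold, edgeR adjusted p = 0.0644), which passed in DESeq2.

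In the tight junction and polarity group, 3 of 23 tested genes were higher and 1 was lower. Mpp5 and Patj, which encode scaffold proteins of the Crumbs polarity complex, were among the higher genes. Mpp5 was at 339, 306 and 319 CPM in the ZP3 Trim-away-labelled libraries and at 128, 135, 96.7 and 88.9 CPM in Trim21 overexpression (log2 fold change 1.52, SE 0.24, edgeR adjusted p = 0.00997). Patj was at 185, 122 and 119 CPM against 34.6, 44.4, 58.3 and 22.5 CPM (1.84, SE 0.40, edgeR adjusted p = 0.0300). In both genes every library of ZP3 Trim-away was above every one of Trim21 overexpression, and the non-manipulated library (160 and 39.9 CPM) lay below ZP3 Trim-away. Cldnd1, a gene of the claudin domain family, was at 133, 136 and 131 CPM against 42.9, 40.9, 30.3 and 47.2 CPM (1.72, SE 0.31, edgeR adjusted p = 0.0153). Cldn12, a claudin gene, was lower: it had 0, 1 and 0 counts in the ZP3 Trim-away-labelled libraries and 649, 94, 135 and 359 counts in Trim21 overexpression (edgeR adjusted p = 0.0258). Over the pooled counts it was 634-fold lower (exact binomial 95% interval 114 to 25070.2, counting error only), and the non-manipulated library had 520 counts.

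Of the connexins and pannexins, which form the same kind of channel as Gja1, 13 of 22 had a count, 4 were tested and none passed in edgeR, with 1 of the 4 at an unadjusted p under 0.05. That gene was Gja4, the connexin of oocyte gap junctions. It was at 12.1, 1.24 and 6.18 CPM in the ZP3 Trim-away-labelled libraries and had no count in any library of Trim21 overexpression or in the non-manipulated one, at least 179.6-fold higher when set against 3 counts over the Trim21 overexpression group. Without ZP3 Trim-away replicate 1 that bound was 102-fold. It missed the threshold in edgeR (adjusted p = 0.0521) and passed it in DESeq2, limma-voom and limma on log2(RPKM + 0.1). The median of the 4 tested genes was 1.91 on the log2 scale, and 18 of the 22 genes were not tested. Setting Gja4 to its bound could not change this median, because Gja4 stayed the highest of the 4.

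No gene passed among the 11 receptor protein tyrosine phosphatases tested, the family of Ptprk, and 1 had an unadjusted p under 0.05 in edgeR. That was Ptpra, with 13.9, 15.1 and 15.5 CPM in the ZP3 Trim-away-labelled libraries and 33.7, 37.1, 38.5 and 36.8 CPM in Trim21 overexpression (log2 fold change -1.30, SE 0.52, edgeR adjusted p = 0.183). Its groups did not overlap, and the non-manipulated library, with 17.8 CPM, was close to ZP3 Trim-away. Ptpra passed in DESeq2 and in limma on log2 RPKM with either pseudocount, where no other gene of this family did. Of 3 desmosome genes tested none passed, with 1 at an unadjusted p under 0.05 in edgeR: Pkp4 (log2 fold change 0.98, SE 0.40, edgeR adjusted p = 0.197). None of the desmosome genes passed in DESeq2 or limma-voom either.

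Integrins, tetraspanins and partners of Epcam gave 1 call among 10 tested genes. Itga9, which encodes an integrin alpha subunit, was at 956, 709 and 699.6 CPM in the ZP3 Trim-away-labelled libraries and at 117, 219.6, 241 and 89.4 CPM in Trim21 overexpression (log2 fold change 2.25, SE 0.36, edgeR adjusted p = 0.0109), with 144 CPM in the non-manipulated library. Cd9, a tetraspanin of the egg membrane that is needed for sperm fusion, had values below those of Trim21 overexpression in all 3 ZP3 Trim-away-labelled libraries, as Epcam did, and did not pass (log2 fold change -1.71, SE 0.45, edgeR adjusted p = 0.0555). It passed in DESeq2, limma-voom, limma on log2(RPKM + 1), with no filter on low counts and without ZP3 Trim-away replicate 3.

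Lef1 passed among the 13 tested genes of beta-catenin turnover and Tcf partners. It encodes a DNA-binding partner of beta-catenin and was at 291, 98.9 and 166 CPM in the ZP3 Trim-away-labelled libraries and at 35.7, 29.8, 48.7 and 30.5 CPM in Trim21 overexpression (log2 fold change 2.36, SE 0.42, edgeR adjusted p = 0.0141). Ctnnb1 itself had a log2 fold change of 0.05. Tcf7, another factor of that kind, and Axin2, a scaffold of the complex that degrades beta-catenin, were 3.71-fold and 2.83-fold higher on average without passing (edgeR adjusted p = 0.178 and 0.183). Both passed in DESeq2, and Axin2 in limma on log2(RPKM + 1).

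Cortical actomyosin and ERM genes, which anchor junctions to the cortex, gave 2 calls in opposite directions among 16 tested. Rdx, which encodes radixin, was at 869.7, 1185 and 909 CPM in the ZP3 Trim-away-labelled libraries against 224, 489, 417 and 449 CPM (log2 fold change 1.32, SE 0.29, edgeR adjusted p = 0.0298). Myl6, a myosin light chain gene, was at 47.6, 44.0 and 58.6 CPM against 123, 121, 128 and 165 CPM (-1.43, SE 0.30, edgeR adjusted p = 0.0258). Neither gene's groups overlapped. Rhoa, the GTPase that activates cortical myosin, lay below Trim21 overexpression in all 3 ZP3 Trim-away-labelled libraries and did not pass (log2 fold change -1.29, SE 0.34, edgeR adjusted p = 0.0565). It passed in DESeq2, limma-voom and limma on log2 RPKM with either pseudocount.

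Of the 9 calls in the wider list, those of Mpp5, Itga9 and Lef1 held whichever of the 7 injected libraries was left out, with edgeR adjusted p of at most 0.0382, 0.0361 and 0.0446. Cldnd1 lost its call without ZP3 Trim-away replicate 2 (edgeR adjusted p = 0.0558). Cdh2 held its call only without ZP3 Trim-away replicate 3 or Trim21 overexpression replicate 2 (edgeR adjusted p up to 0.105), and Cldn12 only without Trim21 overexpression replicate 2 or 3 (up to 0.0699). The omission of any library but Trim21 overexpression replicate 3 ended the call of Patj (up to 0.0844), and of any but ZP3 Trim-away replicate 1 that of Myl6 (up to 0.0955). Rdx held only without ZP3 Trim-away replicate 1 or Trim21 overexpression replicate 1 (up to 0.101). All 9 kept their direction with each library left out. Without ZP3 Trim-away replicates 2 and 3 the edgeR adjusted p was 0.101 for Cdh2, 0.0730 for Cldnd1, 0.0880 for Cldn12, 0.0541 for Patj, 0.0910 for Myl6 and 0.174 for Rdx, so these 6 calls were lost. Among the other tests, scalings and filters, Cldn12 lost its call in limma on log2(RPKM + 1) (adjusted p = 0.111), Rdx in limma on log2(RPKM + 0.1) (adjusted p = 0.0580) and Myl6 in edgeR with no filter on low counts (adjusted p = 0.0578).

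**Figure D4:**
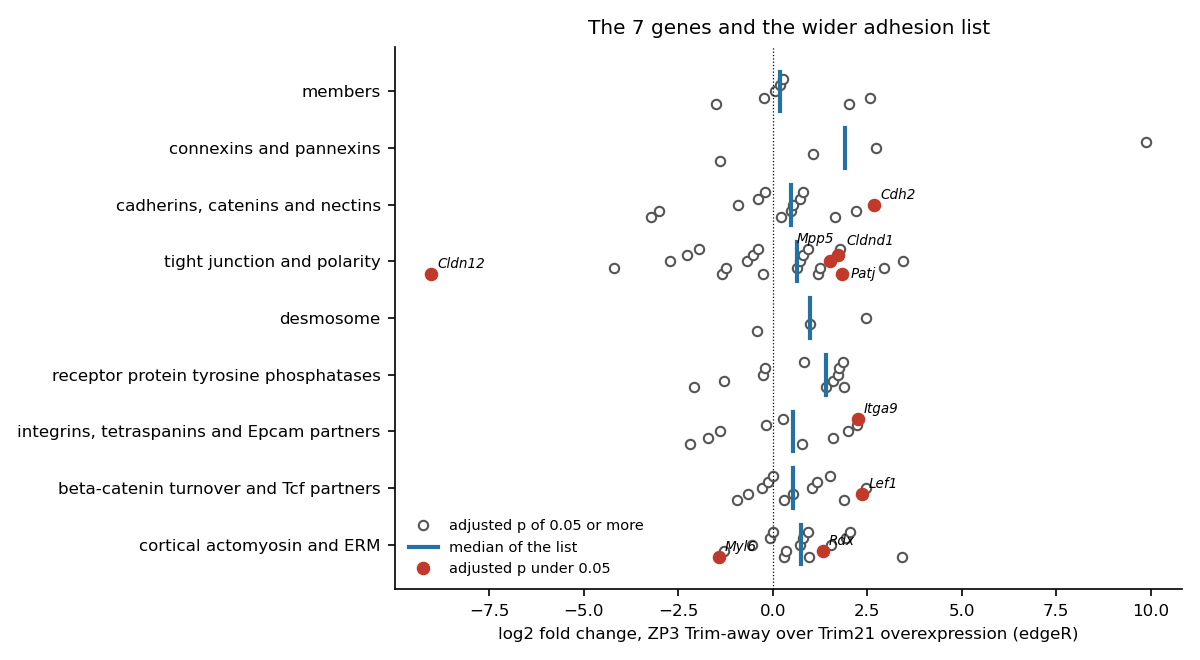
Log2 fold change of ZP3 Trim-away over Trim21 overexpression (edgeR) for the 7 genes and for the tested genes of the 8 wider groups; filled red points passed at an adjusted p under 0.05, open points did not, and blue bars are medians. The 9 named genes passed; the fitted values of Cldn12 (1 count in ZP3 Trim-away) and of Gja4, the open point farthest to the right (no count in Trim21 overexpression), depend on the prior count of the fit.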

How the data were processed

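For the deposited counts, the authors ran bcl2fastq, then FastQC 0.11.9, Trimmomatic, Hisat2 (genome GRCm38) and samtools, and htseq-count assigned the single reads to Ensembl genes, with a strand setting not given in the sources used. RPKM columns in the deposited table were made by the authors from those counts and a gene width that spans introns, and 28651 identifiers hold none. They served only in alternatives, where limma on log2(RPKM + 0.1) or log2(RPKM + 1) took genes above 0 in at least 3 libraries.

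Genes were filtered with filterByExpr, library sizes scaled by TMM, and the 3 ZP3 Trim-away and 4 Trim21 overexpression libraries compared over 13641 genes by the quasi-likelihood test of edgeR 4.0.16 (R 4.3.3) with Benjamini-Hochberg adjustment at 0.05. The methods of the study tested RPKM, and a count test was used instead because counts were deposited. The labels call the libraries biological replicates. The non-manipulated library gave values only. CPM are relative to the TMM-scaled totals. The SE of a log2 fold change was derived as its absolute value divided by the square root of the test's F statistic. The 95% intervals of fold changes use that SE and the t distribution. Log2 CPM for the search of like patterns used a prior count of 2. DESeq2 1.42.0, limma 3.58.1 (also voom), median ratio size factors, no filter, the non-manipulated library in the fit, a replicate block, leaving out each library, and leaving out ZP3 Trim-away replicates 2 and 3 (chosen after seeing the data) were the alternatives. The scripts were tested on simulated data. Exact Poisson and binomial intervals and the limit of 3 counts cover counting error only. Exon lengths and gene coordinates are those of GENCODE M21, and promoters are from RefSeq.

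The 7 genes, the 8 wider groups and the 5 marker lists (cumulus cells, oviduct epithelium, spermatozoa, blood, oocyte and embryo) were chosen with earlier results of these data known. Named were the 7 genes, up to 3 genes per wider group with the smallest p, the 2 genes most like each of the 7, and Zp3 and Trim21; overlap partners, markers, and Patj and F11r, which passed in the wider list in a fit given, are named besides, after their values were seen.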

Additional observations from a re-analysis of the deposited data

Results flagged for a closer look

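For 33 genes, the highest or lowest of the 4 Trim21 overexpression libraries was checked for a gap to the nearest of the others that took up more of the whole range than Dixon's 95% limit allows, a limit that chance passes in about 1 of 20 groups. None of the 7 adhesion and junction genes met it, and 4 genes of the wider list did. Gjc1, a connexin gene, was at 27.6 CPM in Trim21 overexpression replicate 4, and the next highest library had 10.1 CPM. Gjb1, another connexin gene, was at 1.22 CPM in replicate 3 and had no count in the other 3 libraries. Dsc2, which encodes the desmosomal cadherin desmocollin, was at 11.3 CPM in replicate 3 with 0.181 CPM in the next. Myl6 was at 165 CPM in replicate 4 with 128 CPM in the next, and that library was the farthest from ZP3 Trim-away.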

How the results depend on the processing

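In the alternatives with more than 1 library in each arm, the count of the 7 genes that passed was 0 except without ZP3 Trim-away replicate 1. There it was 1 (Epcam), so that leaving out 1 library gave 0 to 1. The ZP3 Trim-away arm of that fit is replicates 2 and 3 alone, whose Trim21 level goes against their label. The fit without replicates 2 and 3 has 1 library in that arm, assumed to vary as Trim21 overexpression does. Of the wider list, 22 of 121 genes passed in DESeq2, a fit of 25623 genes. In limma on log2(RPKM + 1), a fit of 12949 genes, 16 of 104 passed. Leaving out 1 library gave 3 to 7 calls in the wider list. Over all genes, 2911 passed in DESeq2, 1412 in limma-voom and 1598 in limma on log2(RPKM + 1), 408 to 694 with 1 library left out, and 1227 (292 higher, 935 lower) without ZP3 Trim-away replicates 2 and 3, beside 407 higher and 534 lower with all libraries. The causes were not tested. Signs turned for Ptprk in limma-voom (-0.84), and for Cdh1 in limma-voom (-1.05) and limma on log2(RPKM + 0.1) (-0.093). Without ZP3 Trim-away replicates 2 and 3 the log2 fold change was -7.45 for Ptprk, -6.45 for Cdh1 and -0.40 for Gjc1, in a fit whose median over the same genes was -0.54 and not -0.04. With 1 library left out the log2 fold change ran from -0.53 to 0.18 for Gja1, -7.40 to 3.19 for Ptprk, -1.04 to 0.77 for Cdh1, -0.33 to 0.40 for Ctnnb1 and -1.21 to 0.52 for Pkp2. With the replicate number as a block, 0 of the 7, 0 of the wider list and 0 of 13641 genes passed (19 and 2050 at an unadjusted p under 0.05), and Ptprk (-1.57) and Cdh1 (-0.69) turned sign; same-numbered libraries share only a number (r = -0.0612, 0.00653 and -0.000636). Ptprk had 0 to 6 counts in 5 of the 8 libraries, so its values there carry a wide counting error.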
